A study of Mus musculus with 6 samples.

Results

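Maf, the small Maf genes Maff, Mafg and Mafk, the cap'n'collar (CNC) genes Nfe2, Nfe2l1 and Nfe2l2, and the genes of the related repressors Bach1 and Bach2 were examined in mouse haematopoietic stem cells (HSC) with and without PU.1 knockdown. These 9 genes were read by 19 of the 44991 probe sets on the array, each probe set being a group of short probes read as 1 value. Probe sets were taken by gene symbol, from the 34921 that the platform annotation pairs with a single symbol. Maf had 6 of them, Bach2 had 3, Mafg, Nfe2l2 and Bach1 had 2 each, and Maff, Mafk, Nfe2 and Nfe2l1 had 1 each. The family itself was selected on measured values of this same contrast, Maf being among the genes that differed most between the groups. The member differences below are therefore a description and carry no test.

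All 9 genes encode basic leucine zipper transcription factors. The zipper joins a pair of such proteins, and the basic region reads DNA. Small Maf proteins lack a transactivation domain and serve as partners for the CNC and Bach proteins, which bind DNA poorly alone. With the Nfe2 protein they form NF-E2, a factor of erythroid cells and platelet-forming megakaryocytes. With Nrf2, the product of Nfe2l2, they switch on antioxidant genes, and with Bach1 or Bach2 they repress many of the same sites. Maf is a large Maf protein with its own transactivation domain, known from lens, T cells and macrophages.

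The study compared sorted HSC from wildtype mice with those from mice with a PU.1 knockdown. PU.1 is the ETS family factor encoded by Spi1. Each group had 3 Affymetrix Mouse Genome 430 2.0 arrays, each hybridised with amplified RNA of bone marrow HSC sorted by flow cytometry and pooled from 3 animals. The sources used here do not give how PU.1 was lowered, the strain or age of the mice, any agent or the surface markers of the sort. In pooled cells, fewer cells of a type and less RNA per cell cannot be told apart. Values are listed in the order of pools 1, 2 and 3 of a group, in intensity units as deposited. Spi1 itself (1418747_at) read 1120, 718 and 1053 in wildtype against 362, 360.4 and 119 in knockdown pools. Knockdown pool 3 thus had the lowest Spi1 reading of all arrays. Of 10 stem cell markers measured, 9 lay above the median of all probe sets. So did 9 of 10 neutrophil and 8 of 8 erythroid markers, so this share is not particular to stem cell markers. Of the 10, 7 had lower and 3 higher means in the knockdown pools. Groups did not overlap for 1 of them, Tek, at 186, 226 and 163 in wildtype against 90.6, 98.0 and 59.6 in knockdown pools, beside 12.9% of all probe sets. The summed intensity of the stem cell markers was 6636 to 12952 in wildtype against 6968 to 8271 in knockdown pools, and wildtype pool 2 held the highest value. The 10 neutrophil markers summed to 52094, 21395 and 42485 in wildtype against 41008 to 51243 in knockdown pools, so wildtype pool 2 also stood apart there.

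Maf gave the largest differences of the 9 genes, but its 6 probe sets disagreed. On 3 of them every knockdown pool lay above every wildtype pool, on 1 every knockdown pool lay below, and on the other 2 the groups overlapped. Differences are given as knockdown minus wildtype in log2(intensity + 16) after quantile normalisation, with standard errors (SE) from limma and n = 3 pools per group. The scale understates the change of weak probe sets. The plot of the 6 Maf probe sets shows each pool.

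The clearest separation was on Maf 1447849_s_at, whose deposited intensity was 37.1, 58.1 and 46.6 in wildtype against 131, 171 and 195 in knockdown pools. Every knockdown pool was thus far above every wildtype pool. On the log2 scale its level was 5.94 ± 0.24 (SD) in wildtype against 7.53 ± 0.19 in knockdown pools. The difference was 1.59 (SE 0.18, 95% interval 1.18 to 2.00), or 3.01-fold on this scale. In the maker's naming, the ending of this probe set marks probes that may match more than 1 transcript.

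Maf 1437473_at read 80.6, 72.4 and 65.5 in wildtype against 177, 116 and 170 in knockdown pools. Here knockdown pool 1 was highest and pool 2 lowest among the knockdown pools, and the groups did not overlap. The difference was 1.00 (SE 0.19, 95% interval 0.56 to 1.45), from 6.44 ± 0.13 to 7.44 ± 0.33. Maf 1435828_at, a weak probe set, read 24.0, 36.8 and 22.5 in wildtype against 49.8, 75.2 and 153 in knockdown pools. Its values also separated the groups, with knockdown pool 3 far above the others, and its difference was 1.25 (SE 0.31, 95% interval 0.53 to 1.98). Without knockdown pool 3 that difference was 0.90, and with a pseudocount of 64 it was 0.74.

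On Maf 1456060_at the intensities were 48.2, 88.0 and 62.2 in wildtype against 54.0, 144 and 282 in knockdown pools. Knockdown pool 1 lay within the wildtype range while pool 3 was the highest of all arrays. The difference of 0.96 (SE 0.46, 95% interval -0.10 to 2.01) shrank to 0.48 without knockdown pool 3 and grew to 1.49 without knockdown pool 1. On Maf 1444073_at, with 57.1, 70.0 and 76.5 in wildtype against 65.1, 79.2 and 78.9 in knockdown pools, the groups overlapped and the difference was 0.17 (SE 0.15, 95% interval -0.17 to 0.52).

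The brightest Maf probe set ran the other way. Maf 1447945_at read 633, 216 and 265 in wildtype against 179, 189 and 97.7 in knockdown pools. Every knockdown pool was below every wildtype pool, but wildtype pool 2 was only just above knockdown pools 1 and 2, and wildtype pool 1 stood far above all others. Its level was 8.40 ± 0.81 in wildtype against 7.42 ± 0.53 in knockdown pools, a difference of -0.98 (SE 0.42, 95% interval -1.95 to -0.01). Without wildtype pool 1 it was -0.53, and without knockdown pool 3 it was -0.68. The platform annotation gives a source sequence for 3 of the 6 Maf probe sets and none for 3. Those without are 1447945_at, 1437473_at and 1456060_at, so both signs occur among them. Where each probe set lies on the Maf transcript was not analysed here.

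**Figure D1:**
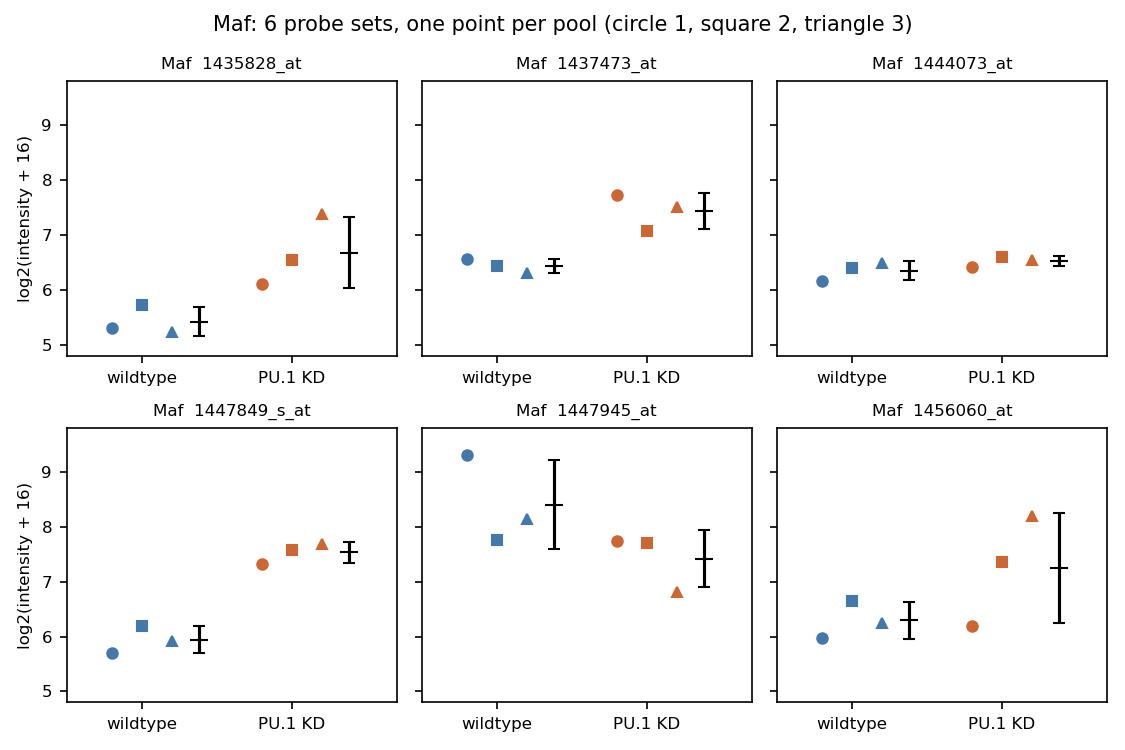
Each panel plots log2(intensity + 16) after quantile normalisation for 1 Maf probe set, with 1 point per pool and the mean ± SD of the 3 pools of a group in black. Knockdown pools lie above wildtype pools on 1435828_at, 1437473_at and 1447849_s_at and below them on 1447945_at, while the groups overlap on 1444073_at and 1456060_at.

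Maf is known from macrophages and T cells, and markers of both and of mast cells and basophils were read beside it. Of 12 macrophage markers, 10 had lower and 2 higher means in the knockdown pools. Their summed intensity was 1814 to 2704 in wildtype against 1962 to 2069 in knockdown pools. Csf1r, the brightest of the 12, read 1422, 1038 and 1540 in wildtype against 1237, 1244 and 1329 in knockdown pools. It thus made up most of each sum. C1qa, a complement gene of tissue macrophages named after its values were seen, was weak, between 18.8 and 62.5 on all arrays. Of 8 T cell markers, 6 had higher means, and their sum was 1002 to 1132 in wildtype against 1086 to 1144 in knockdown pools, hence overlapping. Cd3g, a T cell receptor subunit gene named in the same way, read 23.9, 19.7 and 28.3 in wildtype against 25.7, 36.3 and 41.9 in knockdown pools. It was weak, its groups overlapped, and its difference of 0.37 (SE 0.16) was the highest of the 8 T cell markers. The brighter Il7r and Cd4 differed by 0.32 (SE 0.30) and 0.08 (SE 0.19). Cd28 and Cd3e, the 2 with lower means, differed by -0.48 (SE 0.33) and -0.10 (SE 0.18). No marker of these lists was at 0 on any array, but low readings were rare over the whole table. Of all values of the 44991 probe sets on 6 arrays, 2354 lay under 1. A reading above 0 therefore does not show that a marker was expressed, here or in the lists below.

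Of 9 mast cell and basophil markers, 8 had higher means after knockdown, with a median difference of 1.08 beside 0.018 over all genes. Groups did not overlap for 4 of the 9, all higher, against 12.9% of all probe sets in either direction. With limma, 5 were higher at an unadjusted p under 0.05, against 3.78% of all probe sets. As the list was chosen with earlier results of these data known, nothing is read from these shares. The summed intensity of the 9 overlapped between the groups, at 703 to 3002 in wildtype against 2245 to 4703 in knockdown pools. Hdc, the 1 marker with a lower mean, read 1721, 67.9 and 1497 in wildtype against 449, 241 and 344 in knockdown pools. It thus supplied most of the sum in wildtype pools 1 and 3. Cpa3, the mast cell carboxypeptidase gene, also named after its values were seen, read 124, 147 and 238 in wildtype against 483, 550.3 and 1227 in knockdown pools. Cma1, a mast cell chymase gene named after its values were seen, read 30.2, 34.2 and 32.9 in wildtype against 38.6, 104 and 428 in knockdown pools. Of the 9 markers, 5 were highest in knockdown pool 3 (Cpa3, Gzmb, Mcpt8, Cma1 and Tpsb2). Mcpt4 was highest in knockdown pool 2, and Ms4a2, Fcer1a and Hdc in wildtype pool 1, with Hdc differing by -0.72. Knockdown pool 3 was also highest on Maf 1435828_at, 1447849_s_at and 1456060_at and lowest on 1447945_at. In contrast, Maf 1437473_at was highest in knockdown pool 1, and Maf 1444073_at, by a small margin, in knockdown pool 2. Knockdown pool 3 was lowest for Spi1 as well, no mast cell or basophil marker was at 0 on any array, and the part of either in the Maf values was not tested.

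**Figure D2:**
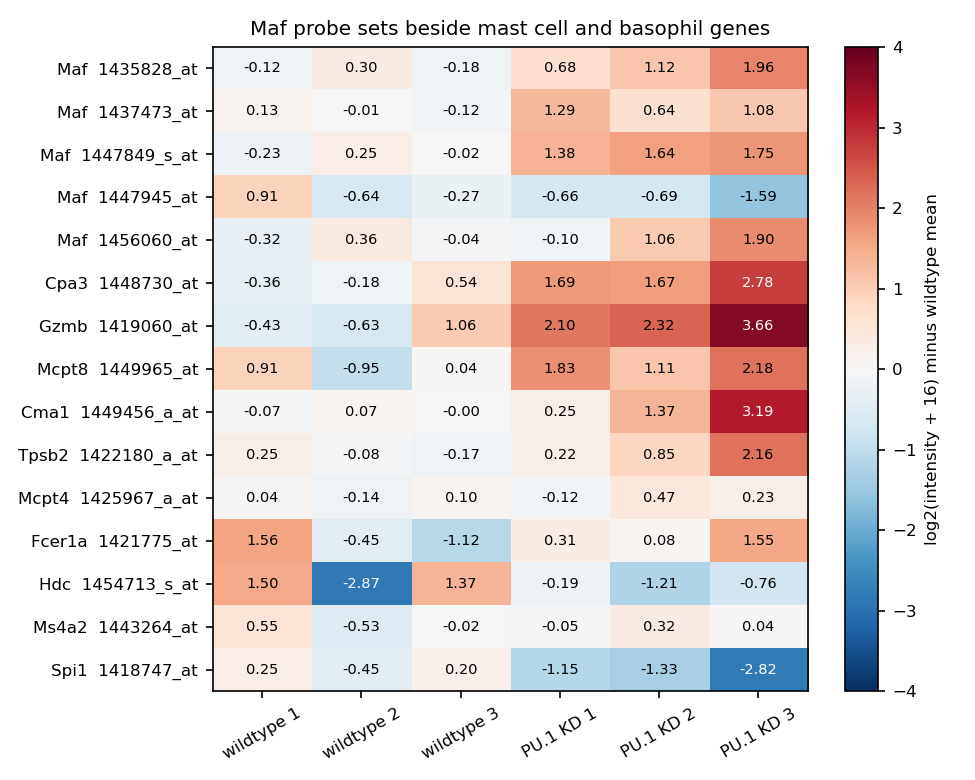
The colour and number in each cell give log2(intensity + 16) of a probe set in 1 pool minus the mean of its 3 wildtype pools. Knockdown pool 3 is highest for Maf 1435828_at (1.96), 1456060_at (1.90), Cpa3 (2.78) and Cma1 (3.19) and lowest for Maf 1447945_at (-1.59) and Spi1 (-2.82), while Maf 1437473_at is highest in knockdown pool 1 (1.29) and Hdc in wildtype pool 1.

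The small Maf genes differed little between the groups. Mafk (1418616_at), whose product partners CNC and Bach proteins, read 428, 463 and 430 in wildtype against 376, 462 and 414 in knockdown pools. These ranges overlapped almost wholly, with a difference of -0.006 (SE 0.13, 95% interval -0.31 to 0.30), which turned positive without wildtype pool 3 or knockdown pool 3. Mafg (1448916_at) read 1170, 1063 and 878 in wildtype against 872, 985 and 1296 in knockdown pools. The ranges overlapped, with knockdown pool 3 highest, and the difference was 0.07 (SE 0.17, 95% interval -0.32 to 0.47).

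The second Mafg probe set, 1434054_at, read 376, 366 and 321 in wildtype against 332, 299.8 and 426 in knockdown pools. The knockdown pools spanned the wildtype range on both sides, and the difference of 0.06 (SE 0.16) was -0.02 with the values as deposited. Maff (1418936_at), the small Maf gene best known for induction by cytokines and stress, was weak, with 40.3, 62.5 and 52.7 in wildtype against 52.7, 53.0 and 53.2 in knockdown pools. The knockdown readings lay inside the wildtype range, and the difference was 0.10 (SE 0.16, 95% interval -0.28 to 0.47). For these 4 probe sets, the intervals reach at most 0.47 on the log2 scale in either direction.

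Several of these genes carry in their own promoters the antioxidant response element core that small Maf heterodimers bind. The core TGACNNNGC was searched on both strands from 250 bases before to 50 after each start. Of the 9 genes, 7 had an entry in the RefSeq promoter table (build GRCm38.p6). A match was found for 4 of these, beside 14.0% of all genes in the table. Counted by promoter, 4 of the 13 of these genes had a match, beside 12.4% of all promoters. The match is shown in capitals within 30 bases, reading 5′ to 3′ on the strand that holds the core, because the proteins known to bind this core include products of these same genes. Of 19 antioxidant response genes in the table, 7 had a match, and that of Gclm is added as an example chosen after its values were seen:
Nfe2l2, chr2:75704884-75704913, minus strand: tcagcccaccTGACTCCGCcatgccccgga
Mafg, chr11:120633751-120633780, plus strand: ctcgccgggtTGACCGTGCtcctgcagaga
Mafk, chr5:139791512-139791541, minus strand: tccccagtacTGACACCGCttccgggatcg
Maff, chr15:79346499-79346528, plus strand: gggcgtctcaTGACTCTGCcactggaaaga
Gclm, an antioxidant gene, chr3:122245412-122245441, minus strand: tcgtgagagtTGACGGTGCgcccgggagcg
A match is a description of the letters and not a binding site. For every probe set of these 4 member genes, the 95% interval of the difference included 0.

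Among the CNC genes, Nfe2 (1452001_at) gave a strong signal, with 1865, 2487 and 1606 in wildtype against 2199.5, 2046 and 2675 in knockdown pools. Wildtype pool 2 lay within the knockdown range, so the groups overlapped. The difference was 0.24 (SE 0.19, 95% interval -0.20 to 0.69), but 0.41 without wildtype pool 2, 0.12 without wildtype pool 3 and 0.14 without knockdown pool 3. Nfe2l1 (1416331_a_at), which encodes Nrf1, the membrane-anchored activator of proteasome genes, read 551, 506 and 422 in wildtype against 458, 399.6 and 429.6 in knockdown pools. The groups overlapped, with a difference of -0.11 (SE 0.17, 95% interval -0.49 to 0.28) that ranged from -0.22, without knockdown pool 1, to -0.02, without wildtype pool 1.

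Nfe2l2 (1416543_at) read 977, 1013 and 1012 in wildtype against 1065, 1136 and 1070.2 in knockdown pools. All 3 knockdown pools were above all 3 wildtype pools, but by a small step, from 9.96 ± 0.06 to 10.14 ± 0.09, and after normalisation wildtype pool 3 and knockdown pool 3 almost met. That difference of 0.18 (SE 0.13, 95% interval -0.13 to 0.49) was smaller than the Maf differences on the non-overlapping probe sets. A second, very weak probe set of Nfe2l2, 1457117_at, read 14.1, 30.6 and 20.6 in wildtype against 21.7, 3.98 and 13.4 in knockdown pools, with a difference of -0.38 (SE 0.27). With 1 array left out that difference ranged from -0.60, without knockdown pool 1, to -0.13, without knockdown pool 2. With a pseudocount of 1 it was -0.85.

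The probe sets of Bach1, the haem-regulated repressor of antioxidant and globin genes, gave differences of opposite sign. Bach1 1440831_at read 785, 848 and 624 in wildtype against 352, 651 and 590.0 in knockdown pools. Knockdown pool 2 was above wildtype pool 3, so the groups overlapped, and knockdown pool 1 was far below the rest. The difference was -0.45 (SE 0.21, 95% interval -0.93 to 0.02), and -0.25 without knockdown pool 1. Bach1 1449311_at read 254, 185 and 108 in wildtype against 229, 205 and 107 in knockdown pools, nearly the same range in both groups. Its difference of 0.09 (SE 0.36, 95% interval -0.75 to 0.93) changed sign with the values as deposited and ranged from -0.21, without wildtype pool 3, to 0.43, without knockdown pool 3.

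The hexamer GAGGAA, the core that PU.1 reads, was searched in the same promoter windows on both strands. It was present for 3 of the 7 member genes in the table, Bach1, Maff and Nfe2l1, beside 31.3% of all genes. Nfe2l1 had 5 and Maff 3 of the 13 member promoters, and so more windows to match. Counted by promoter, the hexamer was in 4 of the 13, beside 28.3% of all promoters. Nfe2l1 counts more than once there through the same stretch. The hexamer of Bach1 begins 5 bases before the annotated start. It is printed in capitals because Bach1 had the lowest member difference outside Maf:
Bach1, chr16:87698937-87698966, plus strand: ggtggtggcggaGAGGAAcggagcgcaggg

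Bach2, a repressor known for B cell and T cell programmes, had higher means in the knockdown pools on all 3 probe sets, 1 of them by almost nothing. Bach2 1436515_at read 131, 349.9 and 172 in wildtype against 173, 292 and 388 in knockdown pools. Wildtype pool 2 lay above knockdown pools 1 and 2, so the groups overlapped. The difference of 0.48 (SE 0.35, 95% interval -0.33 to 1.30) ranged over the alternatives from 0.21 without wildtype pool 1 to 0.84 without wildtype pool 2.

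Bach2 1437667_a_at showed the same order of wildtype pools, with 80.1, 141 and 85.2, beside 127, 107 and 162 in knockdown pools. Its difference was 0.44 (SE 0.22, 95% interval -0.07 to 0.94). On Bach2 1445460_at, with 79.6, 84.6 and 71.2 in wildtype against 67.1, 83.4 and 73.5 in knockdown pools, the difference was 0.006 (SE 0.14, 95% interval -0.32 to 0.33) and turned negative with the values as deposited. Wildtype pool 2, the highest wildtype pool for all 3 Bach2 probe sets, also had the highest stem cell marker sum, 12952 beside 6636 and 7125 in wildtype pools 1 and 3. Whether that sum bears on Bach2 was not tested.

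**Figure D3:**
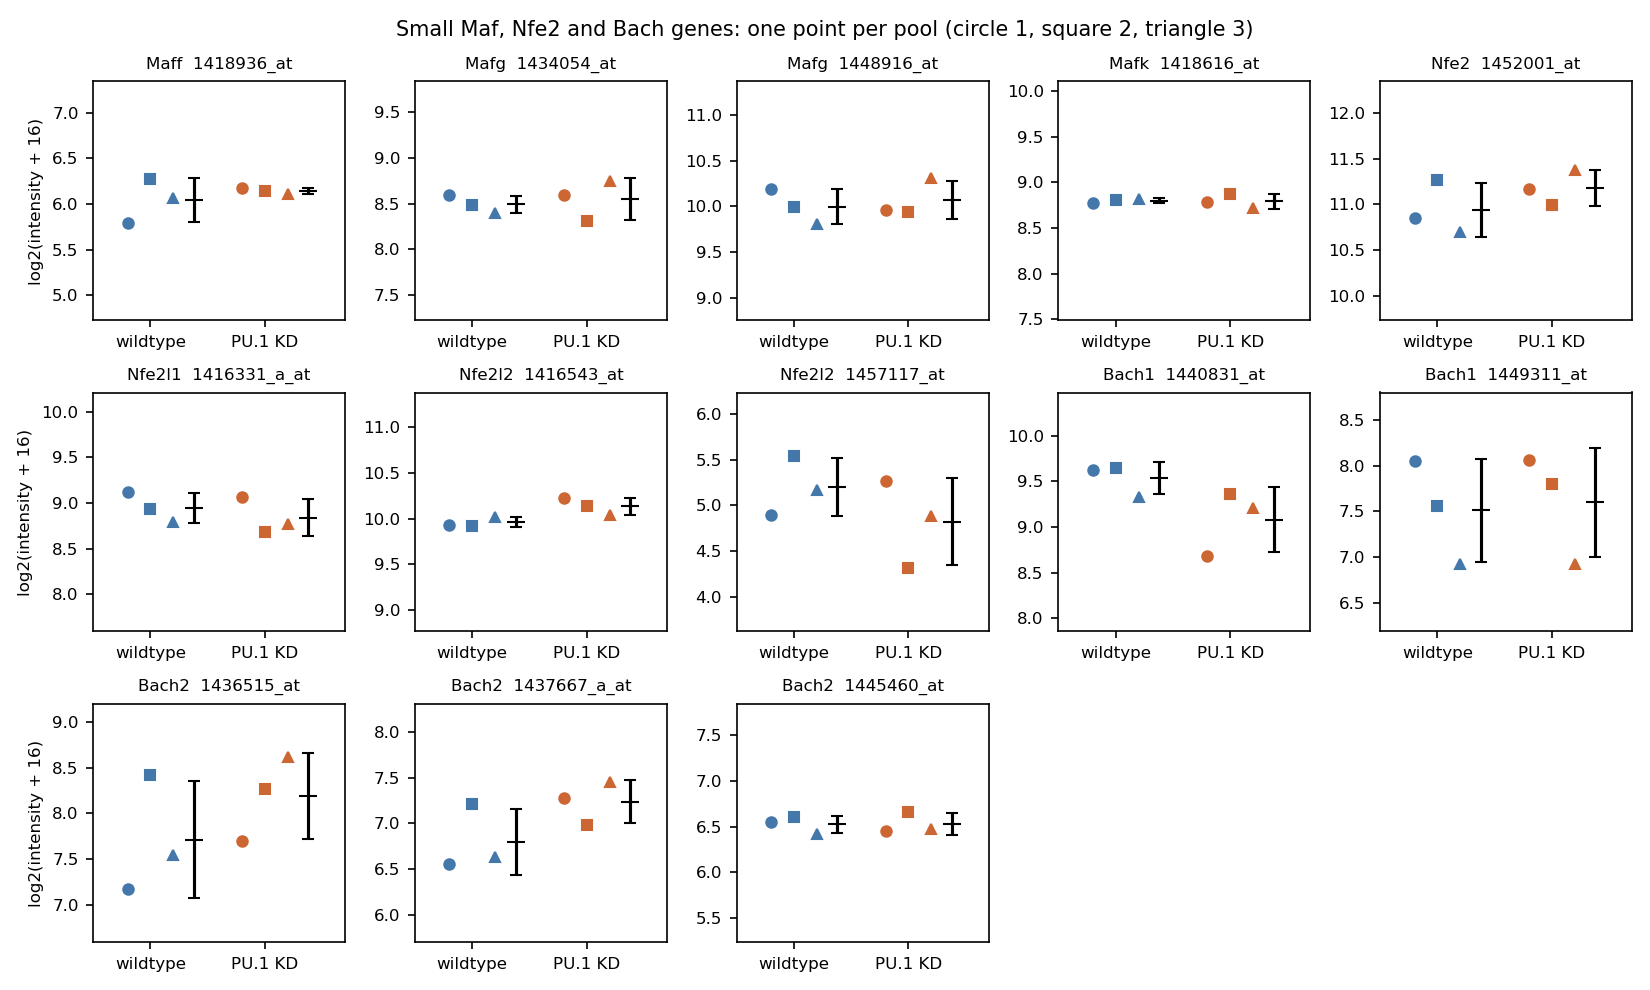
Each panel plots log2(intensity + 16) after quantile normalisation for 1 probe set of a small Maf, Nfe2 or Bach gene, with 1 point per pool and the mean ± SD of the 3 pools in black; every panel spans the same height but starts at its own level. Nfe2l2 1416543_at alone separates the groups, by 0.18, and wildtype pool 2 is the highest wildtype point for Bach2.

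Across the 19 probe sets, 14 had higher and 5 lower means in the knockdown pools, with a median difference of 0.10 beside 0.009 over all probe sets. The groups did not overlap for 5 of the 19, 4 of them from Maf, while the same held for 12.9% of all probe sets. With limma and Benjamini-Hochberg adjustment over the whole table, 0 of the 19 and 0 of the 44991 (0%) passed 0.05. The smallest adjusted p over the table was 0.171. Of the 19, 4 had an unadjusted p under 0.05, all of Maf in this fit and 3 of them higher, against 7.11% of all probe sets, of which 3.78% were higher and 3.33% lower. Since the family was built around this contrast, nothing is read from these shares. Outside Maf, 13 probe sets had differences between -0.45 and 0.48, of which 9 were above 0.

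**Figure D4:**
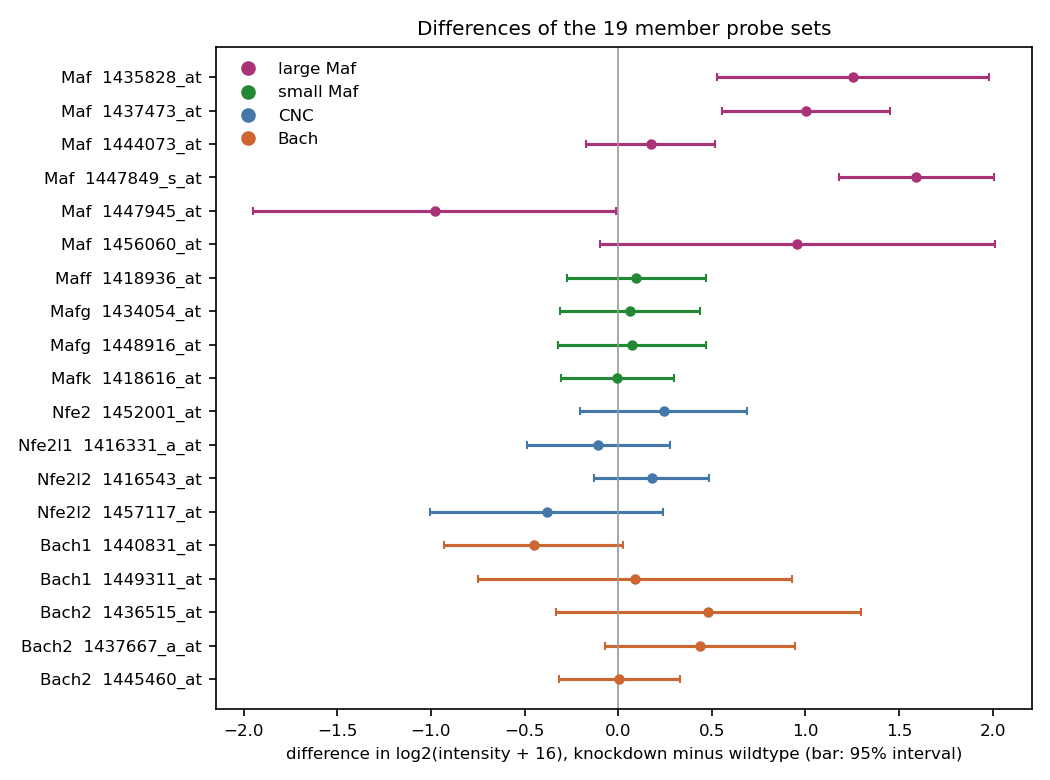
Points give the knockdown minus wildtype difference in log2(intensity + 16) for each of the 19 probe sets, with the 95% interval of the limma fit and colours for the 4 kinds of factor. Maf spans from -0.98 to 1.59, and the other 13 probe sets lie between -0.45 and 0.48 with intervals that include 0.

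Genes that Nrf2 and Bach1 are known to control were read next. Like the marker lists, this pathway list and those after it were chosen with earlier results of these data known, so their shares are descriptions. Of 22 antioxidant response genes measured, 15 had higher and 7 lower means in the knockdown pools, with a median difference of 0.17 beside 0.018 over all genes. That median was 0.07 without wildtype pool 2 and 0.08 with array weights. With limma, 3 were higher and 1 lower at an unadjusted p under 0.05, against 3.78% higher and 3.33% lower over all probe sets, and 0 passed the adjusted test. Gclm, the modifier subunit of glutathione synthesis, read 1000.4, 1008 and 776 in wildtype against 1630, 1839 and 1424 in knockdown pools on 1418627_at. The groups stood well apart, with a difference of 0.85 (SE 0.17) and a limma adjusted p of 0.426. Its second probe set, 1439050_at, overlapped at 0.37 (SE 0.23).

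Me1, the cytosolic malic enzyme that makes NADPH, differed by 0.45 (SE 0.17), with groups that overlapped as deposited but not after normalisation. Nqo1, the quinone reductase often used as an Nrf2 readout and named here after its values were seen, differed by 0.53 (SE 0.22), with knockdown pool 1 inside the wildtype range. Hmox1, which encodes the haem-degrading enzyme repressed by Bach1, was also named after its values were seen and differed by 0.16 (SE 0.22). In the other direction, the drug and glutathione conjugate exporter gene Abcc1 read 878, 1153 and 897 in wildtype against 442, 558 and 512 in knockdown pools on 1452233_at. All 3 knockdown pools were lower, by a difference of -0.86 (SE 0.15), whereas the weak Abcc1 1421378_s_at differed by 0.12 (SE 0.22). Gsr, glutathione reductase, differed by -0.57 (SE 0.51), with wildtype pool 2 below all knockdown pools.

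The 9 regulators of Nrf2 measured had a median difference of 0.02, with 6 higher and 3 lower means. With limma, 0 had an unadjusted p under 0.05 by the brightest probe set of each gene, against 7.11% of all probe sets. That median was -0.07 with the values as deposited, -0.05 without knockdown pool 2, -0.02 without wildtype pool 3 and 0.09 without wildtype pool 2. Keap1, the adaptor that sends Nrf2 for degradation, differed by 0.14 (SE 0.15) on 1450746_at, its brightest probe set. The weak Keap1 1450747_at is not part of the counts above. Its groups did not overlap, at 66.9, 68.6 and 75.6 in wildtype against 171, 85.8 and 93.5 in knockdown pools. The difference was 0.65 (SE 0.26). The ubiquitin ligase scaffold gene Cul3 differed by -0.07 (SE 0.14) and Dpp3, a Keap1-binding peptidase gene, by -0.09 (SE 0.15). Rbm14, a coactivator gene, differed by 0.24 (SE 0.14).

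Proteasome subunit genes, the known targets of Nrf1, had higher means after knockdown in 25 of 31 cases by small steps, with a median difference of 0.15. That median was 0.06 without wildtype pool 2, 0.08 without knockdown pool 1 and 0.10 without knockdown pool 2. With limma, 0 of the 31 had an unadjusted p under 0.05, against 7.11% of all probe sets. Psmd7 and Psmd13, of the regulatory particle, differed by 0.53 (SE 0.24) and 0.45 (SE 0.21), and Psmd3 and Psmc6 by -0.04 (SE 0.13) and -0.04 (SE 0.15). Groups did not overlap for 6 of the 31, all higher, against the 12.9% over all probe sets, which counts both directions. Genes that process Nrf1 had 2 higher and 5 lower means among 7 measured, with 0 at an unadjusted p under 0.05. Their median difference of -0.20 ranged with 1 array left out to -0.0009, without wildtype pool 2, and was also over 1.5 times smaller without wildtype pool 1 (-0.11), knockdown pool 1 (-0.07) or knockdown pool 2 (-0.12). Sel1l, of the degradation machinery of the endoplasmic reticulum, differed by -0.38 (SE 0.24) and the ubiquitin ligase gene Fbxw7 by -0.20 (SE 0.14), while the transcription cofactor gene Hcfc1 and the segregase gene Vcp differed by 0.09 (SE 0.13) and 0.009 (SE 0.13).

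Targets of NF-E2 known from platelets and red cells had 2 higher and 6 lower means among 8 measured, with a median difference of -0.15 that was -0.32 without wildtype pool 2 and -0.30 without knockdown pool 1. With limma, 1 of them had an unadjusted p under 0.05, and it was lower, beside 3.33% of all probe sets. Tbxas1, which encodes thromboxane synthase, read 511, 827 and 517 in wildtype against 320.3, 187 and 94.9 in knockdown pools. Every knockdown pool was lower, with knockdown pool 3 lowest, and the difference was -1.57 (SE 0.41, limma adjusted p 0.532). Tubb1, the platelet tubulin gene, differed by -0.83 (SE 0.53) with overlapping groups, while Fech, the last enzyme gene of haem synthesis, and the caspase gene Casp12 differed by 0.35 (SE 0.21) and 0.45 (SE 0.32). Megakaryocyte and platelet markers summed to 16169, 7942 and 15352 in wildtype against 8307, 2939 and 8376 in knockdown pools, and none of the 8 was at 0 on any array. Tubb1 was lowest in pool 2 of each group, as these sums were. Tbxas1 did not follow them pool by pool, being highest in wildtype pool 2 and lowest in knockdown pool 3. The part of these markers in either value was not tested.

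Genes described as Maf targets in T cells, macrophages or plasma cell tumours had 3 higher and 7 lower means among 10 measured. Only 5 of the 10 lay above the median of all probe sets, so these counts rest in part on weak readings. The median difference of the 10 was -0.06, which was 0.02 without knockdown pool 3 and -0.03 without wildtype pool 3. With limma, 1 had an unadjusted p under 0.05, and it was higher, beside 3.78% of all probe sets. Itgb7, an integrin subunit gene, read 555, 784 and 504 in wildtype against 862, 1255 and 1300.5 in knockdown pools. The groups did not overlap, and the difference was 0.95 (SE 0.19, limma adjusted p 0.426). Cd36, a scavenger receptor gene, was weak, between 17.6 and 51.0 on all arrays, and differed by 0.17 (SE 0.28). The macrophage receptor gene Adgre1 differed by -0.33 (SE 0.18). The cytokine gene Il21, also weak at 53.5 to 84.3, differed by -0.10 (SE 0.19).

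Genes that Bach1 or Bach2 is reported to repress in other cells had 4 higher and 5 lower means among 9 measured, with 0 at an unadjusted p under 0.05 against 7.11% of all probe sets. The median difference of -0.005 changed sign in 6 of the alternatives and ran with 1 array left out from -0.20, without wildtype pool 2, to 0.15, without wildtype pool 3. Prdm1, the plasma cell factor gene repressed by Bach2, differed by -0.46 (SE 0.27) and the Fc receptor gene Fcgr2b by -0.43 (SE 0.31). Cdkn1a, a cell cycle inhibitor gene, differed by 0.48 (SE 0.33) and Gata3, a T lineage factor gene, by 0.47 (SE 0.45). Of the other CNC and large Maf genes, Nrl, a factor of rod photoreceptors, and Nfe2l3, which encodes Nrf3, were measured, with differences of 0.14 (SE 0.17) and -0.002 (SE 0.20).

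**Figure D5:**
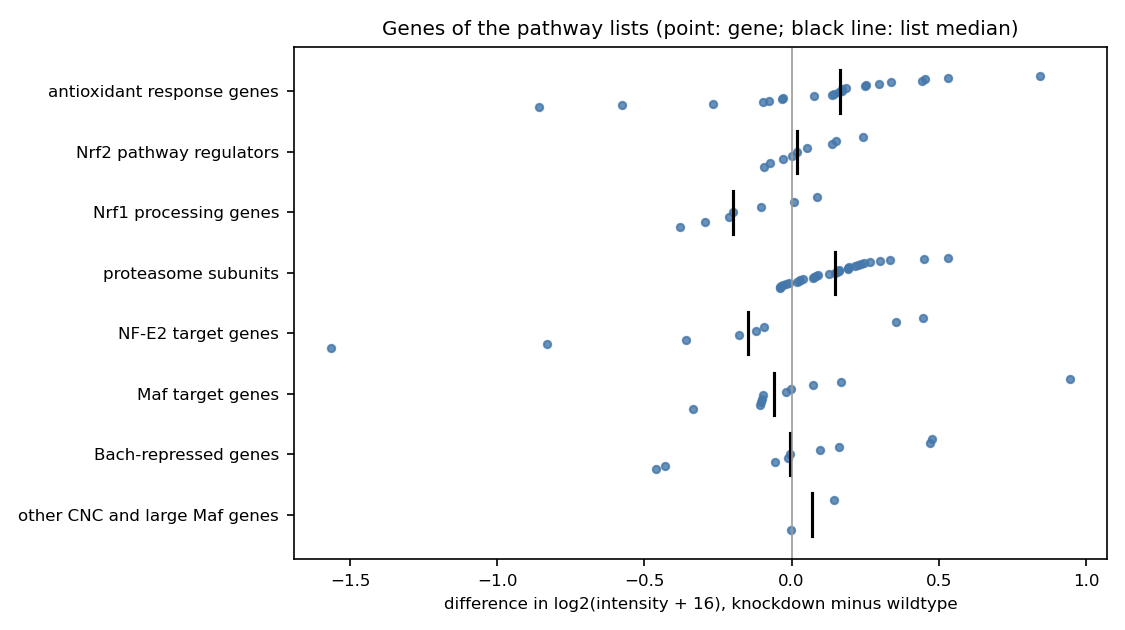
Each point is a gene of a pathway list, by its brightest probe set, placed at its knockdown minus wildtype difference in log2(intensity + 16), and the black line is the list median. Medians run from -0.20 for Nrf1 processing genes to 0.17 for antioxidant response genes, and Tbxas1 at -1.57 and Itgb7 at 0.95 lie farthest out.

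Expression patterns most like Maf over the 6 arrays, which hold both groups, were sought among 19199 other probe sets with 1 symbol and a mean above the median. For the brightest Maf probe set, 1447945_at, they were Rbm38 (Pearson r = 0.995), A530016L24Rik (0.987), Sohlh2 (0.987), St6gal1 (0.985) and Gdf3 (0.984). With the group means removed, the closest were Acbd6, Abcc5, Csnk1g1, Acad10 and Ccl6, at r from 0.995 to 0.998. For 1447849_s_at, chosen after its values were seen, they were Tmem209 (0.998), Sulf2 (0.993), Polr1b (0.991), Pcnx4 (0.991) and 1600014C10Rik (0.986), and with group means removed Rab14, Tmem230, Msh6, Dnmt3a and Cblb, at 0.998 to 0.999. With 6 arrays and so many candidates, values this high describe likeness only.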

How the data were processed

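The values are linear intensity, 1 per probe set and array, as deposited by the authors; the sources used here do not say with which software they were summarised or scaled. Per the labels' protocols, RNA was amplified in 2 rounds with T7 polymerase, a step that favours 3′ ends and adds noise to weak transcripts. Intensities under 1 were set to 1 and log2(intensity + 16) was taken. Array medians on that scale differed by 0.143, above the limit of 0.1, so arrays were quantile normalised. All 44991 probe sets were fitted with limma 3.58.1 (lmFit, eBayes; R 4.3.3), and two-sided p-values were adjusted by Benjamini-Hochberg with a threshold of 0.05; the fit was tested on simulated data first. The array number, 3 pools per group, limits the precision.

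Members and gene lists were chosen with earlier results of these data known. Every member was named, and in each pathway list up to 2 genes per direction of smallest p, by the brightest probe set of a gene; other genes, marker genes included, were named after their values were seen. Of 106 pathway genes listed, 97 had a probe set by symbol, and the rest were not analysed here. List counts rest on the brightest probe set of each gene. The shares over all probe sets beside them also include dim probe sets and those without a symbol, so they are only a rough yardstick. Likeness to Maf was Pearson's r over arrays. Promoter sequences came from RefSeq. Figures used Python 3.11.15 and matplotlib 3.10.9. Other normalisations, pseudocounts, a filter on dim probe sets, other variance models, array weights, a replicate block and leaving out each array were tried.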

Additional observations from a re-analysis of the deposited data

How the results depend on the processing

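Of the 19 member probe sets, 13 kept the sign of their difference in every alternative, all 6 of Maf among them; the 6 that did not were Maff, both of Mafg, Mafk, Bach1 1449311_at and Bach2 1445460_at. For Maf 1447849_s_at the difference ran from 1.09 with a pseudocount of 64 to 1.88 with a pseudocount of 1. No member passed the adjusted limma test in any alternative. Over the whole table the count of calls was 0 in each alternative but for arrays left out, where it ran from 0 to 2, reached without wildtype pool 2. The count of members at an unadjusted p under 0.05 was 4, but 2 above the 40th percentile of the mean, which left 16 of the 19, and 7 with array weights; the cause of the latter was not tested. It was 3 with a pseudocount of 1 and ran from 3 (without wildtype pool 1, wildtype pool 3 or knockdown pool 3) to 6 (without wildtype pool 2). Members outside Maf were among these in 4 settings. They were 2 of 7 with array weights and 2 of 6 without wildtype pool 2. With a pseudocount of 64 and without knockdown pool 2 they were 1 of 4. The share of all probe sets at this limit was not computed for the alternatives, so nothing is read from these member counts. Medians of antioxidant, proteasome and NF-E2 target genes with array weights were 0.08, 0.09 and -0.27. The median difference of Nrf1 processing genes was -0.056 with array weights and ran from -0.21 to -0.00087 with 1 array left out. Samples share replicate numbers, and deviations of equal numbers correlated at 0.178, 0.061 and -0.039. The 0.178 of number 1 was the highest of all combinations. Wildtype pool 2, however, correlated best with knockdown pool 3 (0.154) and wildtype pool 3 with knockdown pool 1 (0.061). As no pairing is stated either, the numbers were not taken as pairs. With the replicate block, 0 probe sets of the table were called and 5 members had an unadjusted p under 0.05. Weak probe sets such as Maff and Nfe2l2 1457117_at are limited by signal over background.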

Other observations

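Marker lists of other blood cells, not set against the family above, also differed between pools. The 6 eosinophil markers measured summed to 2011 to 12683 in wildtype and 243 to 1214 in knockdown pools, with a median difference of -2.24, and 1 of the 6 had an array under the floor of 1. B cell markers summed to 1977 to 2524 in wildtype and 929 to 1993 in knockdown pools, with 6 of 9 means lower and knockdown pool 3 lowest. Markers of erythroid cells, where Nfe2 acts, summed to 3678 to 8198 in wildtype and 4287 to 12028 in knockdown pools, highest in knockdown pool 2, while Nfe2 itself was highest in knockdown pool 3.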
